A study of Mus musculus with 46 samples.

Results

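Infarct tissue of MRL/MpJ mouse hearts was compared with the remaining left ventricular tissue 5 days after a coronary artery was tied off, using 8 of the 46 expression arrays of the series: 4 labelled infarct and 4 labelled noninfarct, chosen by their titles. The mice were males of 15 to 20 weeks, and the left coronary artery had been closed with a suture. The infarct piece was taken with a biopsy punch and includes the border region, and the noninfarct piece is the rest of the left ventricle. Further groups served for comparison with this region difference: MRL/MpJ hearts 1 day after the same operation (4 infarct and 4 noninfarct arrays), unoperated MRL/MpJ hearts (day 0) cut at the same anterior-apical place (4 and 4 arrays), and C57BL/6J hearts 5 days after the operation (4 and 4 arrays). All are mixed tissue, so fewer cells of a type and less RNA per cell cannot be told apart in any result. Replicates are labelled as biological, but no label ties an infarct array to the noninfarct array of its own heart.

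MRL/MpJ is an inbred strain known for closing ear punch wounds by regrowth of tissue, and it has been studied as a model of repair in other organs. In mice, dead heart muscle is cleared over the first days after coronary occlusion by neutrophils and then by monocytes and macrophages. Fibroblasts then turn into contractile, matrix-making myofibroblasts that build the scar. Surviving cardiomyocytes depend on fatty acid oxidation in mitochondria, and muscle under load often returns to a fetal gene programme.

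Values are log2 of the deposited GCRMA intensity, a background-corrected brightness summarised over the probes of 1 gene (a probe set). The median array value was 4.22 to 4.48 on this scale, and the size of a difference is not exact where 1 of its groups lies below that level. A probe set or gene is called here when limma's adjusted p was under 0.05. Of 13138 probe sets tested, 7760 stood for different genes.

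The library labelled MRL day 5 infarct replicate 3 went against its label in both region and strain. On the first principal component of all arrays, on which most day 5 infarct arrays scored high, it scored 11 while infarct replicates 1, 2 and 4 scored 107.9, 115.7 and 109.0 and the noninfarct arrays scored 20.5 to 42.8. Among 190 probe sets that differed between the strains in unoperated hearts, it lay nearer the MRL mean in 24, against 104 to 107 in the other MRL day 5 infarct arrays and 141 to 147 in the noninfarct arrays. Over all tested probe sets its correlation with group means was 0.889 for MRL day 5 infarct tissue, 0.978 for MRL day 5 noninfarct tissue and 0.991 for C57 day 5 noninfarct tissue. The library labelled C57 day 5 noninfarct replicate 3 showed the opposite pattern, with a first component score of 99.1 and 99 of 190 probe sets nearer the MRL mean. Both libraries keep their labels here, and counts are given with all arrays and without MRL day 5 infarct replicate 3. The difference of a single gene that is given once is without replicate 3 unless stated, and genes that were called only without it are named as such. Differences from C57 are also given without both. The reason for the values was not tested.

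**Figure D1:**
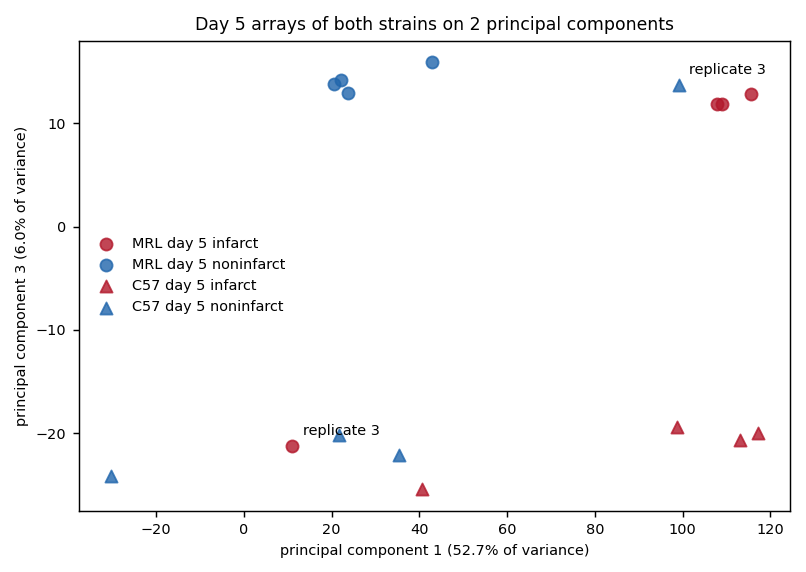
Scores of the 16 day 5 arrays on principal components 1 and 3, computed over all arrays, with MRL as circles, C57 as triangles, infarct in red and noninfarct in blue. The library labelled MRL infarct replicate 3 lies at 11 on component 1, and the library labelled C57 noninfarct replicate 3 at 99.1.

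With all arrays, 1842 probe sets were called between MRL day 5 infarct and noninfarct tissue (14% of those tested), 589 higher (4.48%) and 1253 lower (9.54%) in infarct tissue. Without replicate 3 the count was 4318 (32.9%), with 2021 higher (15.4%) and 2297 lower (17.5%). Of the 1842, 1828 were called in the same direction without that library and 0 in the opposite direction. Counted by gene, 5.34% of 7760 genes were higher and 10.3% lower with all arrays, and 16.7% were higher and 18.3% lower without replicate 3. The median log2 difference over all tested genes was 0.02 in both. In 4085 of the 4318 probe sets, replicate 3 lay nearer the mean of the noninfarct arrays than that of the other infarct arrays.

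Heart muscle genes were lower in infarct tissue. Without replicate 3, 17 of 19 tested sarcomere and Z-disc genes fell, against 13 with all arrays, and the median log2 difference of the list was -1.36 (-0.91 with all arrays). None rose. Myh6, the main myosin heavy chain of the adult mouse ventricle, had log2 intensities of 14.29, 13.07 and 14.05 in infarct replicates 1, 2 and 4 and 15.35 in replicate 3, against 15.26, 15.15, 15.13 and 15.11 in the noninfarct arrays. Its log2 difference was -1.36 ± 0.25 (SE, n = 3 and 4, adjusted p = 8.2e-05) without replicate 3 and -0.97 ± 0.28 (n = 4 and 4, adjusted p = 0.018) with it. A second Myh6 probe set fell more, at -2.59 (adjusted p = 0.00052) without replicate 3 and -1.90 (adjusted p = 0.027) with it. By the brightest probe set of each gene, Tcap, the titin cap of the Z-disc, had the largest fall of the list, by 2.58 on the log2 scale (adjusted p = 0.0002). Ldb3 fell by 2.16 and Tnni3, cardiac troponin I, by 1.89, and all 3 were also called with all arrays. Actc1, cardiac actin, and Des, desmin, were the members not called, at log2 differences of -0.20 and -0.19.

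Of 17 tested genes for calcium handling and ion channels, 16 fell without replicate 3 and 13 with all arrays, at a median log2 difference of -1.72 (-1.23 with all arrays). Kcnip2, an accessory subunit of the channels that carry the transient outward potassium current, had log2 intensities of 4.18, 3.83 and 3.74 in infarct replicates 1, 2 and 4 and 6.42 in replicate 3, against 7.73, 6.56, 8.15 and 8.09 in noninfarct tissue. All 4 infarct arrays thus lay below all 4 noninfarct arrays, with a log2 difference of -3.09 ± 0.76 with all arrays (adjusted p = 0.0096) and -3.71 ± 0.78 without replicate 3 (adjusted p = 0.0004). Hrc, a calcium-binding protein of the sarcoplasmic reticulum, fell by 3.26 and Cacnb2, a calcium channel subunit, by 3.12 without replicate 3. Kcnip2 and Cacnb2 lay below the median array level in infarct replicates 1, 2 and 4, so that their sizes are not exact. Atp2a2, the calcium pump of the sarcoplasmic reticulum, changed less in its brightest probe set. Its log2 difference there was -0.77 ± 0.19 (adjusted p = 0.0022) without replicate 3 and -0.54 ± 0.20 (adjusted p = 0.063) with it. Another Atp2a2 probe set was called in both, at -1.45 (adjusted p = 8.4e-05) without replicate 3 and -1.03 (adjusted p = 0.019) with it. The remaining ones, at -1.25 and -0.57 without replicate 3, were called only without it. Gja1, the main gap junction protein of the ventricle, was not called (-0.63 without replicate 3).

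The genes with the largest falls without replicate 3 were Yipf7, Fitm1, Rpl3l, Ppargc1a and Plin5. Yipf7 had log2 intensities of 3.74, 3.60 and 3.91 in infarct replicates 1, 2 and 4 and 8.30 in replicate 3, against 8.73, 7.49, 8.45 and 8.44 in noninfarct tissue, a log2 difference of -4.53 ± 0.70 (adjusted p = 1.2e-05). Fitm1, which takes part in lipid droplet formation in muscle, had log2 intensities of 4.25, 3.70 and 4.72 with replicate 3 at 9.15, against 8.59, 7.87, 9.05 and 9.18, a log2 difference of -4.45 ± 0.70 (adjusted p = 1.5e-05). Rpl3l, the muscle-specific relative of a ribosomal protein, fell by 4.21 (adjusted p = 3.4e-05). In these genes the 3 infarct arrays lay more than 3 log2 units below the noninfarct range, and replicate 3 lay within it. Plin5, a coat protein of lipid droplets, fell by 4.13. Efnb3, Mlf1 and Asb10 had log2 differences of -3.85 to -3.63. With all arrays these falls were smaller and still called, among them Yipf7 (-3.39), Fitm1 (-3.22), Rpl3l (-3.23) and Plin5 (-3.03). Yipf7, Ppargc1a, Plin5, Efnb3 and Asb10 averaged below the median array level in infarct tissue without replicate 3, so that these sizes are not exact.

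**Figure D2:**
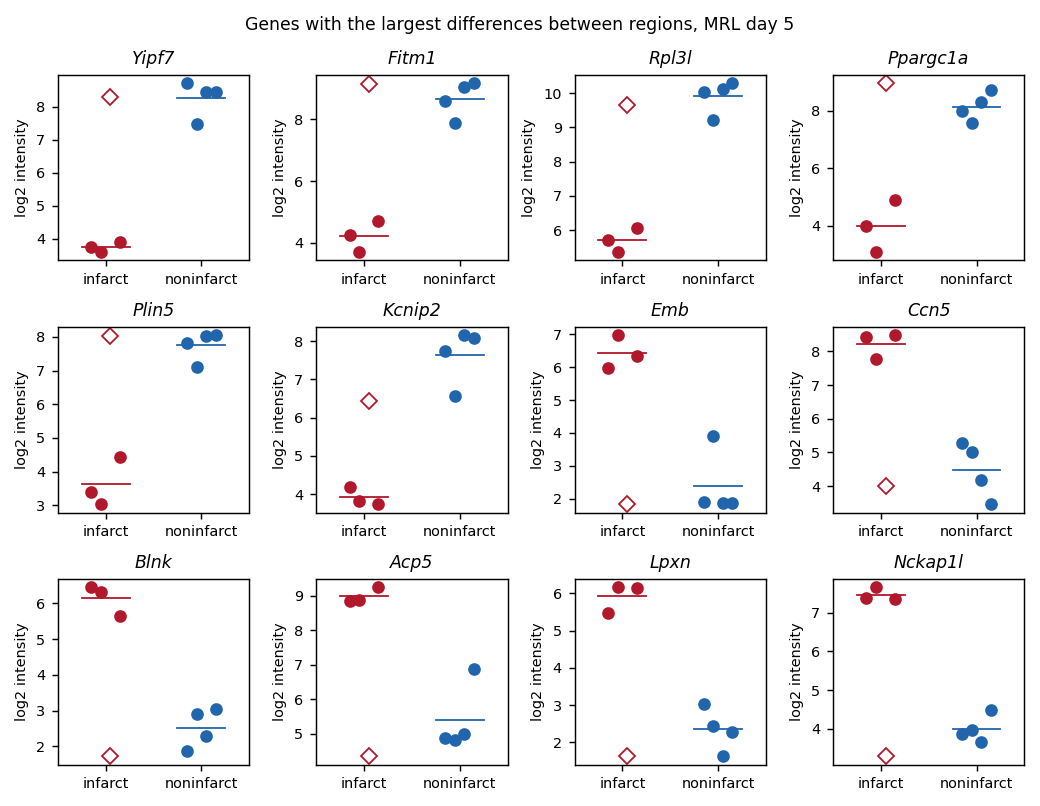
Log2 intensity of 12 genes with large region differences in MRL day 5 infarct (left of each panel, red) and noninfarct tissue (blue), each point 1 array. The open diamond is infarct replicate 3, and horizontal lines are the means of infarct replicates 1, 2 and 4 and of the 4 noninfarct arrays. In Yipf7 the filled infarct points lie between 3.60 and 3.91 and the diamond at 8.30.

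Genes for energy supply in mitochondria fell nearly as whole lists. All 19 tested genes of pyruvate dehydrogenase and the citric acid cycle fell, with and without replicate 3, at median log2 differences of -1.14 and -1.55. Of 26 tested genes of the respiratory chain and ATP synthase, 26 fell without replicate 3 and 24 with all arrays (median -1.49 and -1.09). Of 24 tested genes for fatty acid uptake and oxidation, 22 fell without replicate 3 and 20 with all arrays (median -1.73 and -1.30). The list medians of the infarct arrays other than replicate 3 lay 1.29 to 1.94 log2 units below the noninfarct mean in these 3 lists, while replicate 3 lay 0.03 to 0.18 above it.

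Ppargc1a, a coactivator of genes for mitochondria, was among the largest falls. Its log2 intensity was 3.98, 3.08 and 4.89 in infarct replicates 1, 2 and 4 and 8.97 in replicate 3, against 8.00, 7.58, 8.30 and 8.71 in noninfarct tissue, and its log2 difference without replicate 3 was -4.17 ± 0.80 (adjusted p = 0.00014). With replicate 3 it was -2.92 (adjusted p = 0.025). Eci1, which isomerises unsaturated fatty acids for oxidation, had log2 intensities of 8.16, 8.10 and 8.51 with replicate 3 at 11.22, against 11.21, 10.72, 11.45 and 11.40, a log2 difference of -2.94 ± 0.41 (adjusted p = 3.5e-06). Pdk4, a kinase that switches pyruvate dehydrogenase off, fell by 3.21 (adjusted p = 0.0017). Dld, a subunit shared by the pyruvate, 2-oxoglutarate and branched-chain dehydrogenases, fell by 2.20. Cox8b and Cox7a1, muscle forms of cytochrome oxidase subunits, fell by 2.64 and 2.57. Ucp3 and Slc27a1 were the tested fatty acid genes not called in either, at -0.86 and -0.19 without replicate 3.

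Of 15 tested genes for branched-chain amino acid breakdown, 14 fell without replicate 3 and 11 with all arrays, at a median log2 difference of -1.91 (-1.48). Dbt, a core subunit of the branched-chain dehydrogenase, had log2 intensities of 5.06, 5.53 and 5.02 with replicate 3 at 7.54, against 7.79, 7.62, 7.63 and 7.74 in noninfarct tissue, a log2 difference of -2.49 ± 0.34 (adjusted p = 3.3e-06). Genes for glucose use divided. Of 17 tested, 9 fell and 1 rose without replicate 3, and 6 fell and 0 rose with all arrays, with median log2 differences of -0.40 and -0.30. The falls were led by Slc2a4, the insulin-dependent glucose transporter (-2.58), Ldhb (-2.24), Pgam2 (-2.11) and Eno3 (-2.10), most of them muscle or heart forms of their enzymes. Ldha, Aldoa and Tpi1 fell by 0.40 to 0.53, Pfkfb3, which makes an activator of glycolysis, rose by 0.90, and Slc2a1, Pgk1 and Pkm were not called (0.23, -0.06 and -0.09). Ldha, Aldoa and Pfkfb3 were called only without replicate 3.

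**Figure D3:**
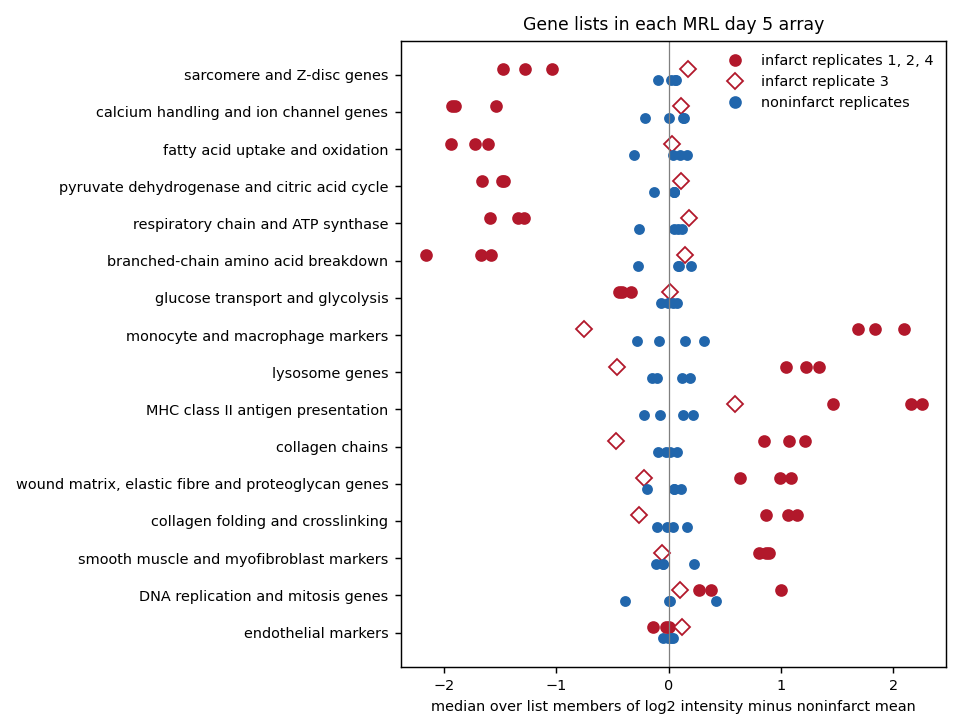
Median over the tested members of 16 gene lists of log2 intensity minus the mean of the 4 noninfarct arrays, 1 point per array. Red points are infarct replicates 1, 2 and 4, open diamonds infarct replicate 3 and blue points the noninfarct arrays. The macrophage list lies at 1.68 to 2.09 in the filled infarct points and at -0.75 in replicate 3.

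Promoter sequences were looked at in the genes called without replicate 3, because the citric acid cycle genes fell as a whole list and the macrophage genes described below nearly so. Motifs were searched on both strands of the 300 bases around the start (250 before it) in the RefSeq table for GRCm38.p6. The site of NRF1, a factor known for activating nuclear genes for mitochondria, was found in 4 of 17 citric acid cycle genes with a promoter in the table (23.5%; 19 called), against 4.78% of all 27025 promoters. It was found in 2 of 20 respiratory chain genes (10%) and 3 of 20 fatty acid genes (15.0%). The site of PU.1, a factor of the myeloid lineage (letters GAGGAAGT), was found in 3 of 17 macrophage genes (17.6%), against 3.28% of all promoters. It was also in 2 of 12 lysosome genes (16.7%). Of the macrophage matches, that in Cd53 began 6 bases past the start and that in Ctss 2 bases before it, and only that in C1qc lay wholly before the start. The short site of ERR, another factor of genes for mitochondria (letters AAGGTCA), was found in 5.88%, 0% and 5% of the citric acid cycle, respiratory chain and fatty acid genes, against 4.66% of all promoters. The letters of MEF2, a factor of muscle genes, were in 0 of 15 sarcomere promoters and in 0.115% of all promoters. Base composition was not matched. Of 9 motifs searched, the 4 described were picked after the shares were seen. Below are stretches on the gene's own strand with the matching letters in capitals, from Sdha (chr13:74350304-74350363, minus strand), Sdhd (chr9:50603894-50603953, minus strand) and Sucla2 (chr14:73552744-73552785, plus strand), which code for 2 succinate dehydrogenase subunits and a succinyl-CoA ligase subunit, and from C1qc (chr4:136893077-136893134, minus strand), a chain of complement C1q, where the PU.1 letters appear as their reverse complement. The NRF1 letters in Sucla2 also match as the reverse complement.
Sdha: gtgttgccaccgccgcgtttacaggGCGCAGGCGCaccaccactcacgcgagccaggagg
Sdhd: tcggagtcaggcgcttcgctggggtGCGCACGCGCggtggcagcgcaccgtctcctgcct
Sucla2: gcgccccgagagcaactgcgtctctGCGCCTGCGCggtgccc
C1qc: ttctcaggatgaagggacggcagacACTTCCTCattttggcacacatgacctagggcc
Sdha, Sdhd and Sucla2 fell by 1.85, 1.27 and 1.36 on the log2 scale without replicate 3, and C1qc rose by 1.18, a rise that was called only without it.

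The fetal and stress genes of heart muscle did not move as 1 group. Without replicate 3, 4 of 13 tested members fell (30.8%, against 18.3% of all genes) and 0 rose, and with all arrays 0 were called. Nppa, atrial natriuretic peptide, had log2 intensities of 14.76, 14.43, 14.32 and 14.76 in infarct replicates 1 to 4, against 14.61, 14.73, 14.53 and 14.34 in noninfarct tissue. Both regions lay above the means in unoperated MRL hearts, 12.25 in the infarct place and 12.26 in the noninfarct place. Nppb and Myh7 were not called between regions (-0.88 and -1.04 without replicate 3, adjusted p = 0.073 and 0.37). Ankrd1 and Xirp1, proteins made under mechanical load, fell by 0.91 and 0.82, called only without replicate 3.

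The other falls of that list, Myl4 and Myl7, are atrial light chains, and they differed between the same places before any operation. Myl4 had log2 intensities of 4.99, 4.92 and 4.75 in infarct replicates 1, 2 and 4 and 10.79 in replicate 3, against 9.63, 9.17, 9.75 and 5.63 in the noninfarct arrays. Noninfarct replicate 4 thus lay near the infarct arrays. In unoperated MRL hearts the means were 5.23 in the infarct place and 9.55 in the noninfarct place. Myl7 and Sln, which codes for the atrial calcium pump regulator sarcolipin, had the same order of arrays, with 2.53 and 2.00 in noninfarct replicate 4 and 6.94 to 8.28 and 5.79 to 6.29 in the other noninfarct arrays. Of 6 tested atrial and conduction markers, 4 fell and 1 rose without replicate 3, 0 were called with all arrays, and none of the 6 was called when the unoperated difference was taken off. A second Myl4 probe set had a log2 difference of -0.14 (adjusted p = 0.44). Any part of atrial tissue in these values was not tested.

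Macrophage genes were higher in infarct tissue. Without replicate 3, 26 of 31 tested monocyte and macrophage markers rose, and 5 rose with all arrays, at median log2 differences of 1.86 and 1.15. The summed intensity of the 31 was 54402 to 63273 in infarct replicates 1, 2 and 4 and 9740 in replicate 3, against 14880 to 19594 in noninfarct tissue. Lgals3, galectin 3, had log2 intensities of 12.69, 12.78 and 12.12 in infarct replicates 1, 2 and 4 and 7.96 in replicate 3, against 9.73, 10.38, 9.30 and 9.22 in noninfarct tissue. Replicate 3 was below every noninfarct array, and the log2 difference was 2.87 ± 0.80 without it (adjusted p = 0.0053) and 1.73 ± 0.86 with it (adjusted p = 0.17). In unoperated MRL hearts Lgals3 averaged 2.44 in the infarct place and 2.68 in the noninfarct place. Gpnmb, a membrane protein of lipid-laden macrophages, showed the same with a log2 difference of 2.80 ± 0.79 (adjusted p = 0.0063), against 1.03 (adjusted p = 0.53) with replicate 3, which read 4.16.

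Fcgr1, a high-affinity Fc receptor, was called with and without that library. Its log2 intensity was 5.98, 5.86, 3.26 and 5.77 in infarct replicates 1 to 4, against 3.42, 3.67, 2.59 and 2.99, with log2 differences of 2.05 ± 0.61 (adjusted p = 0.024) with all arrays and 2.70 ± 0.61 (adjusted p = 0.00079) without replicate 3. Itgb2, the shared chain of leukocyte integrins, rose by 2.71, the scavenger receptor Msr1 by 2.64 and Cd68, a lysosomal membrane protein of macrophages, by 2.16 without replicate 3, and none of these 3 was called with it. Cd163 and Mrc1, markers of resident macrophages, were not called, at log2 differences of -0.77 and 0.77. Ccr2, the chemokine receptor of recruited monocytes, and Arg1 were not called either, at 1.21 and 2.52.

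Lysosome genes were also higher: 14 of 15 tested rose without replicate 3 and 4 with all arrays, at median log2 differences of 1.22 and 0.80. Ctsk, a collagen-degrading cathepsin, had log2 intensities of 9.84, 9.48 and 9.76 in infarct replicates 1, 2 and 4 and 5.02 in replicate 3, against 7.77, 7.50, 7.05 and 6.92, a log2 difference of 2.38 ± 0.57 (adjusted p = 0.0015) without replicate 3. Ctsz rose by 2.02 and Lipa, lysosomal acid lipase, by 1.74. Ctsk and Ctsz were not called with all arrays, and a second Lipa probe set was not called in either (0.28 without replicate 3, adjusted p = 0.59). All 4 tested genes of MHC class II antigen presentation rose without replicate 3, and 3 of them with all arrays. H2-Eb1 had log2 intensities of 8.35, 7.401, 6.46 and 7.47 in infarct replicates 1 to 4, against 6.21, 5.43, 5.59 and 6.10 in noninfarct tissue. Even replicate 3 lay above all 4 noninfarct arrays, and the log2 difference was 1.59 ± 0.39 (adjusted p = 0.0096) with all arrays.

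The genes with the largest rises without replicate 3 included Emb, Ccn5, Clca3a1, Blnk and Acp5. Blnk, an adaptor of B cell receptor signalling that macrophages also use, had log2 intensities of 6.45, 6.33 and 5.66 in infarct replicates 1, 2 and 4 and 1.72 in replicate 3, against 1.87, 2.89, 2.28 and 3.05, a log2 difference of 3.62 ± 0.51 (adjusted p = 5e-06). Of 3 tested B lymphocyte markers it was the only one called, with Ighm at 0.19 and Ms4a1 at 0.01, and Cd79a and Cd79b did not pass the filter on low values. Acp5, a tartrate-resistant phosphatase of osteoclasts and macrophages, rose by 3.60, and Nckap1l, a regulator of actin in blood cells, by 3.47. Lpxn, Adam8, Cd300a and Slc15a3 rose by 3.44 to 3.57, Adam8 only without replicate 3. Emb, the adhesion protein embigin, had the largest estimate, with log2 intensities of 5.98, 6.97 and 6.33 and 1.84 in replicate 3, against 1.89, 3.90, 1.87 and 1.89 in noninfarct tissue, a log2 difference of 4.04 ± 0.61 (adjusted p = 9.4e-06). The noninfarct arrays of Emb and Blnk lay below the median array level, so that these sizes are not exact. With all arrays Emb was at 2.90 and Blnk at 2.52, both called. Of 4 tested T lymphocyte markers, Il7r rose by 2.42, Thy1, Cd4 and Cd247 were not called (0.92, -0.01 and 0.03), and the Cd3 chains did not pass the filter.

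Few neutrophil markers could be tested. Of 4 tested neutrophil markers only Mmp9, the gelatinase B that macrophages also make, was called (2.63 ± 0.38, adjusted p = 6.2e-06). S100a8, the abundant calcium-binding protein of neutrophils, had log2 intensities of 3.14, 5.59, 5.66 and 4.42 in infarct replicates 1 to 4, against 2.88, 3.35, 3.61 and 2.88 in noninfarct tissue, and was not called (1.52, adjusted p = 0.058, with all arrays). Of 17 tested chemokines and cytokines, Il1rn, the interleukin 1 receptor antagonist, Cxcl14 and Tgfb1 rose by 1.93, 1.61 and 1.28 without replicate 3. That is 17.6% of the list, near the 16.7% of all genes, and with all arrays only Il1rn was called (5.88%). A second Cxcl14 probe set was not called (1.65, adjusted p = 0.061). Ccl2, Il1b and Il6 were not called (1.23, 0.36 and 0.04). Of 9 tested interferon-induced genes, Usp18 fell by 0.83 (adjusted p = 0.049) without replicate 3 and none was called with all arrays. That fall is 11.1% of the list, under the 18.3% of all genes that were lower without replicate 3. The list median of these 9 was 1.60 above the noninfarct mean in replicate 3, and -0.44 to 0.79 in the other infarct arrays.

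Matrix genes were higher in infarct tissue, though Col1a1 and Col3a1, the main chains of fibrillar collagen, were not called. Without replicate 3, 8 of 18 tested collagen chains rose and with all arrays 2, at median log2 differences of 1.05 and 0.61, and 0 fell. These rises are 44.4% and 11.1% of the list, against 16.7% and 5.34% of all genes. Col1a1 had log2 intensities of 15.11, 14.82, 13.26 and 14.75 in infarct replicates 1 to 4, against 13.87, 13.94, 13.89 and 13.74 in noninfarct tissue. Infarct replicates 1, 2 and 4 lay above all noninfarct arrays and replicate 3 below them, with a log2 difference of 1.03 ± 0.49 (adjusted p = 0.10) without replicate 3. Unoperated hearts averaged 9.01 in the infarct place and 9.13 in the noninfarct place. Col12a1 and Col18a1 were called with and without replicate 3, at 1.45 and 1.58 without it. Col3a1 (0.65), Postn (0.35), Fn1 (1.24) and Lox (1.05) were not called. A second Fn1 probe set was called, at 1.49 (adjusted p = 0.0022) without replicate 3.

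Of 22 tested wound matrix, elastic fibre and proteoglycan genes, 9 rose without replicate 3 (40.9%) and 3 with all arrays (13.6%), and 0 fell. Ltbp2, a microfibril protein, had log2 intensities of 10.09, 9.04 and 9.89 and 7.16 in replicate 3, against 7.80, 7.74, 7.12 and 6.87 in noninfarct tissue, a log2 difference of 2.29 ± 0.57 (adjusted p = 0.0019) without replicate 3. Eln, elastin, rose by 1.07 and Mfap2, only without replicate 3, by 2.19. Of 14 tested genes for collagen folding and crosslinking, 7 rose without replicate 3 (50%, against 16.7% of all genes). With all arrays 1 rose, Loxl1 (7.14%, near the 5.34% of all genes). Of 16 tested matrix proteases and inhibitors, 6 rose without replicate 3 (37.5%), among them Mmp9, Adam12 (2.34) and Mmp14 (1.80). With all arrays 1 rose, Mmp9 (6.25%, also near the share of all genes). Mmp14 was called in 4 of the 7 fits that left out 1 further day 5 array, and Timp1 was not called (1.33, adjusted p = 0.12).

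Genes of contractile non-cardiac cells and of growth factor signalling rose in part. Of 13 tested smooth muscle and myofibroblast markers, 6 rose without replicate 3 (46.2%) and 4 with all arrays (30.8%). Of all genes, 16.7% and 5.34% rose. Acta2, smooth muscle actin, had log2 intensities of 12.82, 12.84, 11.18 and 12.53 in infarct replicates 1 to 4, against 11.25, 11.31, 11.05 and 10.89 in noninfarct tissue, with log2 differences of 1.61 ± 0.24 (adjusted p = 7.2e-06) without replicate 3 and 1.22 ± 0.27 (adjusted p = 0.0054) with it. Tpm2 and Tagln rose by 1.77 and 1.75, while Myh11, the myosin of mature smooth muscle, was not called (-0.11). Of 11 tested fibroblast and epicardial markers, 3 rose without replicate 3 (27.3%, against 16.7% of all genes): Sfrp2 (2.21), Fap (1.15) and Pdgfra (0.78). With all arrays 0 were called. Fap was called in 2 of the 7 fits that left out 1 further day 5 array, and a second Pdgfra probe set was at 0.10 (adjusted p = 0.79). Ccn5, a matricellular protein of the CCN family, led the 7 of 21 TGF-beta and Wnt pathway genes that rose without replicate 3 (2 with all arrays), with log2 intensities of 8.41, 7.77 and 8.48 and 4.02 in replicate 3, against 5.28, 5.00, 4.19 and 3.47, a log2 difference of 3.73 ± 0.62 (adjusted p = 2.7e-05). The TGF-beta and Wnt pathway genes that rose were 33.3% of their list without replicate 3 and 9.52% with all arrays. Of 20 tested secretory pathway genes, 9 rose without replicate 3 (45%) and 1 with all arrays (5%, near the 5.34% of all genes). The rises without it were led by Sec61b (1.72) and Creb3l1 (1.37), neither called with all arrays.

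Some cell division genes and few vessel genes differed between the regions. Of 28 tested DNA replication and mitosis genes, 6 rose without replicate 3 (21.4%, against 16.7% of all genes) and 3 with all arrays (10.7%, against 5.34%), and 0 fell. Bub1b, a kinase of the spindle checkpoint, had log2 intensities of 4.34, 5.49, 4.22 and 5.89 in infarct replicates 1 to 4, against 3.07, 4.13, 3.59 and 3.69, and all 4 infarct arrays lay above all 4 noninfarct arrays (1.36 ± 0.31, adjusted p = 0.0068, with all arrays). Cdca3 was likewise higher in all 4 infarct arrays (1.77, adjusted p = 0.0082, with all arrays), but barely, with infarct replicate 1 at 3.875 and noninfarct replicate 2 at 3.872. The noninfarct arrays of Bub1b and Cdca3 lay below the median array level, so that these sizes are not exact. Mki67, a marker of dividing cells, overlapped between regions, with 7.29, 8.83, 7.84 and 8.13 in infarct replicates 1 to 4 against 6.86, 7.99, 7.30 and 7.69 in noninfarct tissue, and was not called (0.56, adjusted p = 0.52, with all arrays). Its means in unoperated hearts were 3.54 in the infarct place and 3.38 in the noninfarct place. Of 18 tested endothelial markers, 0 rose and 1 fell, Flt1, a receptor of vascular endothelial growth factor (-0.86 without replicate 3, with 2 other Flt1 probe sets not called), and Pecam1 was at 0.02. The fall is 5.56% of that list, under the 18.3% of all genes without replicate 3 and the 10.3% with all arrays. Of 10 tested cell cycle inhibitors and p53 targets, Gadd45b and Cdkn2b rose, Ccng1 fell and Cdkn1a was not called (0.32) without replicate 3. That is 20% higher and 10% lower, against 16.7% and 18.3% of all genes. With all arrays 1 rose and 1 fell (10% each, against 5.34% and 10.3% of all genes). Gadd45b was called only without it, and its second probe set was not called (1.65, adjusted p = 0.064).

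Some genes separated the regions with replicate 3 included, and in a few of them that library was the most extreme infarct array. Of 7760 genes, 9.23% had no overlap between the 4 infarct and the 4 noninfarct arrays. Smyd1, a methyltransferase of striated muscle, had log2 intensities of 7.82, 6.51, 8.66 and 7.94 in infarct replicates 1 to 4, against 10.38, 10.29, 10.26 and 10.45, a log2 difference of -2.61 ± 0.46 (adjusted p = 0.0013) with all arrays. Thrsp, which takes part in fatty acid synthesis, fell by 3.03 (adjusted p = 0.0051) and Casq1, a calcium buffer, by 1.97 (adjusted p = 7.3e-05). Ly86 and Capg, genes of myeloid cells, rose by 2.43 and 2.31 with all arrays. In Serpina1b, Abhd1 and B4galnt2, which averaged 1.90, 3.33 and 2.24 in C57 day 5 infarct tissue, replicate 3 read 1.86, 3.99 and 2.17 and lay below the other MRL infarct arrays. The Serpina1b probe set can also bind related serpin genes. B4galnt2 was called with it (-2.15, adjusted p = 0.031) and not without it (-1.17, adjusted p = 0.14).

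Few probe sets were called between the same places of unoperated MRL hearts: 4 of 13138 (0.0304%), 1 higher and 3 lower in the infarct place. An unadjusted p under the threshold was reached by 81, fewer than would pass with no difference. The spread was shared over all 12 groups, so these p-values do not measure the spread of the unoperated arrays alone. The day 5 region difference minus the unoperated region difference was called for 3 probe sets with all arrays (0.0228%), with 1908 at an unadjusted p under the threshold. Without replicate 3 it was called for 1980 (15.1%), 749 higher and 1231 lower. By gene it was higher for 6.46% and lower for 10.2% of the 7760. It was lower for 16 of 19 sarcomere genes, 20 of 24 fatty acid genes, 19 of 19 citric acid cycle genes and 26 of 26 respiratory chain genes. It was higher for 15 of 31 macrophage markers, 12 of 15 lysosome genes, 6 of 22 wound matrix genes and 3 of 18 collagen chains. Fitm1 and Yipf7 had estimates of -4.45 and -4.37, and Emb, Ccn5 and Clca3a1 of 4.04, 3.74 and 3.72.

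The region difference at day 5 was also set against that at day 1 in the same strain. Both comparisons use the same 8 day 5 arrays. The day 5 difference minus the day 1 difference was called for 1 probe set with all arrays (0.00761%), that of Comp, a cartilage matrix protein, and 1518 had an unadjusted p under the threshold. Without replicate 3 it was called for 792 (6.03%), 467 higher and 325 lower, or 4.24% and 2.64% by gene. Lysosome genes were higher in 9 of 15, with a list median of 1.22 at day 5 and -0.01 at day 1. Respiratory chain genes were lower in 13 of 26 (-1.49 at day 5, -0.45 at day 1) and sarcomere genes in 8 of 19 (-1.36 and -0.23). Macrophage markers were higher in 3 of 31 (medians 1.86 and 1.21).

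Some genes that were high in infarct tissue at day 1 were low at day 5. S100a8 averaged 4.38 in day 5 infarct tissue (without replicate 3) and 3.18 in noninfarct tissue, and 9.96 in day 1 infarct and 6.03 in day 1 noninfarct tissue, and the difference of differences was -2.73 (adjusted p = 0.035). Slfn4 had log2 intensities of 1.68 to 1.79 in all 8 day 5 arrays, and averaged 5.93 in day 1 infarct tissue and 2.02 in day 1 noninfarct tissue (-3.89, adjusted p = 0.0044). Ppbp, a platelet chemokine, and Fosl1, an AP-1 factor, were likewise at or under 2.28 in every day 5 array, and their differences of differences were -3.23 and -2.77. Comp averaged 6.15 in day 5 infarct tissue (without replicate 3) and 5.23 in day 5 noninfarct tissue, against 3.22 in day 1 infarct tissue and 4.36 in day 1 noninfarct tissue; its mean was higher in infarct tissue at day 5 and lower at day 1 (2.06, adjusted p = 0.004).

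Few genes were called for a difference between MRL and C57 hearts in their region difference at day 5. The difference of differences was called for 18 probe sets with all arrays (0.137%), 1 higher and 17 lower, for 42 without MRL infarct replicate 3 (0.32%), and for 37 without both libraries that stand apart (0.282%), 22 higher and 15 lower. Unadjusted p was under the threshold for 420, 997 and 539 probe sets. The counts with all arrays and without both libraries are fewer than would pass with no difference. The spread was shared over all 12 groups, and these low counts do not show that the strains were alike. List medians were -1.36 in MRL and -0.93 in C57 for sarcomere genes, -1.73 and -1.53 for fatty acid genes, 1.86 and 2.02 for macrophage markers, and 0.55 and 1.15 for DNA replication and mitosis genes, each without the library that stands apart. The C57 medians include C57 infarct replicate 1, which scored 40.5 on the first principal component, against 98.8 to 117.2 in the other C57 infarct arrays. Its correlation was 0.981 with C57 day 5 noninfarct tissue and 0.945 with C57 day 5 infarct tissue. The difference between these medians was not tested.

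Cadm1, a cell adhesion molecule, had the largest such estimate without both libraries. It had log2 intensities of 5.67, 6.58 and 5.92 in MRL infarct replicates 1, 2 and 4 and 2.28 in replicate 3, against 2.71, 3.07, 2.33 and 2.64 in MRL noninfarct tissue. In C57 hearts it was 2.31 to 3.00 in the 4 infarct arrays, against 2.38, 2.33 and 2.32 in noninfarct replicates 1, 2 and 4 and 5.06 in replicate 3. The library labelled MRL infarct replicate 3 thus lay among the C57 arrays, and the library labelled C57 noninfarct replicate 3 near the MRL infarct arrays. The difference of differences was 3.15 ± 0.25 (adjusted p = 3.4e-11) without them and 2.89 (adjusted p = 0.097) with all arrays. Cfi, complement factor I, and Gabbr1, a GABA-B receptor subunit, had the same pattern, at 2.25 (adjusted p = 3.4e-11) and 2.54 (adjusted p = 8.1e-06) without both libraries. In Cadm1 and Cfi every day 5 group but MRL infarct tissue lay below the median array level. The sizes for these genes are therefore not exact, and a C57 region difference cannot be read.

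Mmp9 also differed between the strains. Its log2 intensity was 7.45, 5.53 and 6.76 in MRL infarct replicates 1, 2 and 4 and 3.63 in replicate 3, against 3.71 to 4.51 in MRL noninfarct tissue, and 3.47 to 3.87 in the 4 C57 infarct arrays. The difference of differences was 2.67 ± 0.42 (adjusted p = 0.00029) without both libraries and 2.48 (adjusted p = 0.22) with all arrays, and a second Mmp9 probe set gave 3.88 (adjusted p = 1.2e-09). Hal, histidine ammonia-lyase, had log2 intensities of 9.534, 9.996 and 9.004 in infarct replicates 1, 2 and 4 and 2.503 in replicate 3, against 6.34 to 7.28 in MRL noninfarct tissue, and 2.43 to 2.60 in C57 infarct tissue. Its difference of differences was 2.83 ± 0.50 (adjusted p = 0.0014) without both libraries and 2.73 (adjusted p = 1.0) with all arrays. C57 infarct tissue lay below the median array level in Mmp9 and Hal, so that these sizes are not exact. Without both libraries, Acp5 and Il1rn also had a larger region difference in MRL, by 2.09 (adjusted p = 0.0062) and 1.60 (adjusted p = 0.0091). A second Il1rn probe set was not called (2.09, adjusted p = 0.14).

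**Figure D4:**
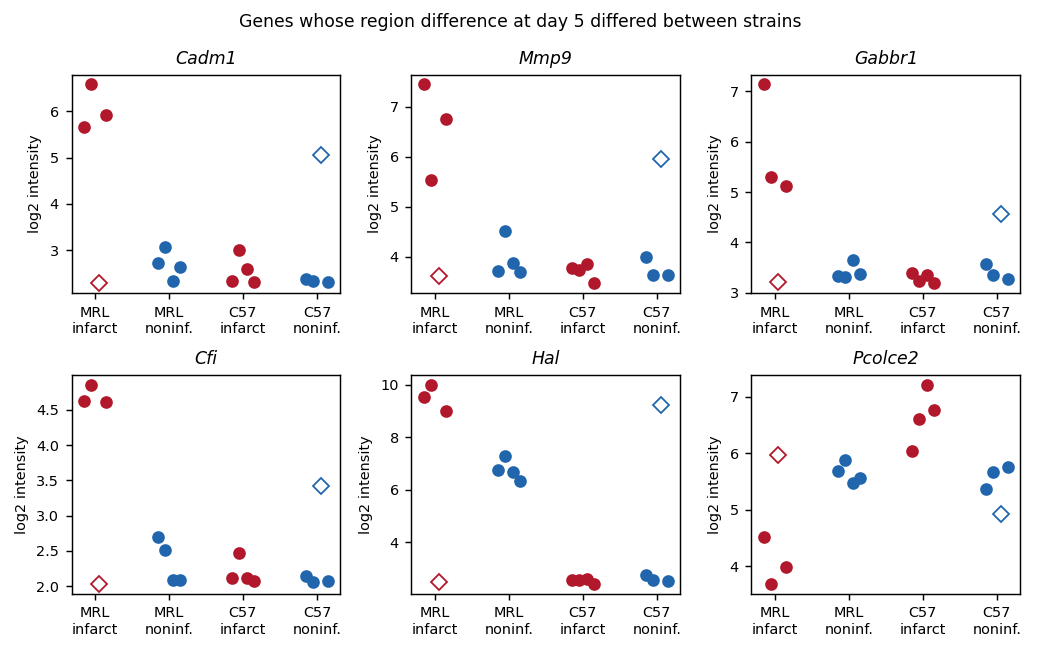
Log2 intensity of 6 genes whose region difference at day 5 differed between MRL and C57, 1 point per array, infarct in red and noninfarct in blue. Open diamonds are the libraries labelled MRL infarct replicate 3 and C57 noninfarct replicate 3. Cadm1 lies between 5.67 and 6.58 in the other 3 MRL infarct arrays and at or under 3.00 in all C57 infarct arrays.

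Kcnj15, Ms4a4c, Galc, Ncapg2 and Pcolce2 differed in the opposite direction. Kcnj15, a potassium channel, had log2 intensities of 3.27, 3.20, 3.36 and 3.65 in MRL infarct replicates 1 to 4, against 3.35, 3.26, 3.38 and 3.27 in MRL noninfarct tissue, while C57 infarct arrays read 4.36 to 5.97. The difference of differences was -1.88 in both fits (adjusted p = 3.8e-05 with all arrays and 6e-05 without both libraries). Here and in Il15 below, MRL tissue of both regions lay below the median array level, so that these sizes are not exact. Ms4a4c, Galc and Ncapg2 had estimates of -2.20, -2.04 and -1.94 with all arrays, and all 3 were called with and without the 2 libraries. Without them a second Galc probe set had the opposite sign and was not called (0.82, adjusted p = 1), and a second Ms4a4c probe set was not called (-1.81, adjusted p = 0.12). Pcolce2, an enhancer of procollagen processing, had region differences of opposite sign in the 2 strains, with log2 intensities of 4.51, 3.69 and 3.98 in MRL infarct replicates 1, 2 and 4 and 5.96 in replicate 3, against 5.47 to 5.88 in MRL noninfarct tissue, and C57 infarct arrays read 6.04 to 7.21, against 5.36 to 5.75 in C57 noninfarct replicates 1, 2 and 4. Its estimate was -2.65 ± 0.47 (adjusted p = 0.0017) without both libraries and -2.35 (adjusted p = 0.046) with all arrays. Il15, like Cadm1, had a positive estimate, 2.31 (adjusted p = 0.0071) without both libraries: C57 noninfarct tissue averaged 6.24 and C57 infarct tissue 4.22, while MRL infarct replicates 1, 2 and 4 averaged 3.72 and MRL noninfarct tissue 3.43.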

How the data were processed

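RNA of the infarct and noninfarct pieces was hybridised to Affymetrix MOE430A arrays, and the authors deposited 1 table of linear GCRMA intensity values for 22690 probe sets and 46 arrays; the program is named in the submitters' processing notes and its version is not given in the sources used here. The values are already background-corrected and normalised, array medians were 18.58 to 22.31, and the number of arrays limits the precision. Here log2 was taken and the 64 control probe sets were left out. A probe set was tested if it lay above its array's median in at least 3 arrays. The test was limma 3.58.1 (R 4.3.3) with 1 mean for each of 12 groups of strain, day and region, 34 residual degrees of freedom with all arrays, two-sided p-values and Benjamini-Hochberg adjustment over 13138 probe sets.

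Names came from the platform annotation: 20380 probe sets had 1 symbol, 691 several and 1555 none. A gene is represented by its brightest tested probe set. Named genes are the 10 largest rises and 10 largest falls among called genes with no overlap between regions (with and without infarct replicate 3), up to 4 called members of each list with the largest differences, list members that were not called, the 5 highest and 5 lowest called differences of differences, and a set of index genes; a few further list members are named after their values were seen. Also named are the called genes, 5 in each direction, for which infarct replicate 3 lay farthest from the other infarct arrays. The gene lists and the comparison were chosen with earlier results of these data known. A promoter was found for 448 of 599 list and named genes. On simulated data the fit recovered 53% of changes of 1 log2 unit and 98% of changes of 2 with all arrays, and 42% and 96% without infarct replicate 3. The simulated arrays had independent normal noise, and unlike in the data none went against its label. These shares therefore do not show what leaving out that array does to the real counts. Deviations of same-numbered MRL day 5 arrays from their group means correlated at 0.082, 0.467, 0.343 and -0.021. For MRL day 1 arrays the values were 0.483, 0.337, 0.557 and 0.401, each the highest for its infarct array. For C57 day 1 arrays they were 0.096, -0.462, 0.154 and -0.27. There, infarct replicates 1 to 4 correlated highest with noninfarct replicates 4, 1, 2 and 3, at 0.539, 0.503, 0.59 and 0.278. Same-numbered values were 0.071, 0.169, 0.551 and 0.44 in unoperated MRL hearts and 0.435, 0.227 and 0.277 in unoperated C57 hearts. For C57 day 5 arrays they were 0.768, -0.007, 0.247 and 0.254. Infarct replicate 3 enters the MRL day 5 means, so the MRL day 5 values cannot exclude that same numbers share a heart. Which arrays share a heart is not settled by any of these values. Numbers were not treated as pairs, and regions that may share a heart were tested as independent. Alternatives were other scalings, filters, offsets, sample sets, array weights, a replicate block and leaving out arrays.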

Additional observations from a re-analysis of the deposited data

Results flagged for a closer look

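In groups of 4 arrays, the gap between the most extreme array and its nearest neighbour was divided by the group's range and compared with Dixon's critical value. By chance about 1 in 20 groups passes. Some of the genes examined below were chosen because infarct replicate 3 lay far from the other infarct arrays. Others were chosen for large region differences without it. The counts for that array therefore cannot be set against this share. Infarct replicate 3 passed as the lowest array on principal components 1 and 3, at 0.926 and 0.971, and noninfarct replicate 2 as the highest on component 1, at 0.852.

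Of 81 genes examined, infarct replicate 3 was the highest array past this value in 9: Mlf1 (0.991), Myl7 (0.978), Myl4 (0.960), Nppb (0.949), Yipf7 (0.934), Dgat2 (0.914), Pcp4l1 (0.905), Rpl3l (0.840) and Kcnip2 (0.837). It was the lowest in 12: Col3a1 (0.936), Nckap1l (0.931), Acp5 (0.920), Cfi (0.914), Gpnmb (0.891), Apobec1 (0.881), Hal (0.868), Lgals3 (0.864), Lpxn (0.847), Ccn5 (0.842), Clca3a1 (0.842) and Blnk (0.834). Among noninfarct arrays, replicate 1 was high in Comp (0.924), Galc (0.899) and Myo7a (0.892). Replicate 2 was high in Emb (0.989) and low in Pcp4l1 (0.927). Replicate 4 was high in Acp5 (0.908) and Slc22a23 (0.832) and low in Myl4 (0.860).

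The difference of region differences passed limma's test for the genes named next, each on the log2 scale and without infarct replicate 3 unless stated. Against unoperated MRL hearts it was lower for Fitm1 (-4.45), Yipf7 (-4.37), Ppargc1a (-4.31), Rpl3l (-4.20), Plin5 (-4.08), Fam81a (-1.87) and Slc22a23 (-1.66), and higher for Emb (4.04), Ccn5 (3.74), Clca3a1 (3.72), Acp5 (3.69) and Blnk (3.61). Against MRL hearts at day 1 it was lower for Slfn4 (-3.89), Ppbp (-3.23), Rpl3l (-3.16), Yipf7 (-3.09) and Fosl1 (-2.77), and higher for Ccn5 (3.76), Acp5 (3.73), Clca3a1 (3.62), Blnk (3.62), Emb (3.58) and Comp (2.06). Against C57 hearts at day 5, without both libraries that stand apart, it was higher for Cadm1 (3.15), Hal (2.83), Mmp9 (2.67), Gabbr1 (2.54), Il15 (2.31), Cfi (2.25) and Acp5 (2.09). It was lower for Pcolce2 (-2.65), Ms4a4c (-2.10), Ncapg2 (-2.002), Kcnj15 (-1.88) and Galc (-1.84), and, with all arrays, for Serpina1b (-2.66). A second Serpina1b probe set passed without both libraries, at -2.51 (adjusted p = 0.0031).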

How the results depend on the processing

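Counts of called probe sets are given in the order difference at day 5, that minus unoperated MRL, minus MRL day 1 and minus C57 day 5; as reported they were 1842, 3, 1 and 18. Leaving out 1 array gave 213 to 4318, 2 to 1980, 0 to 792 and 6 to 42. The highest counts were without MRL day 5 infarct replicate 3, and the count at day 5 was 427, 213 and 480 without infarct replicates 1, 2 and 4, which leaves replicate 3 more weight. Without both libraries that stand apart the counts were 4636, 2514, 1338 and 37. Array weights gave 5705, 4290, 1838 and 65. Only the groups compared gave 12, 31, 0 and 3, and only MRL arrays gave 26 against unoperated MRL and 16 against day 1. The replicate block gave 2790, 45 and 129 for the first 3, with 23 against C57.

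Centring arrays gave 7 and 3 against unoperated MRL and day 1, quantile normalisation 7 against day 1, no filter 0 against day 1 and 11 against C57, the stricter filter 0 against unoperated MRL and 1 against C57, and an offset of 32 gave 6 and 8 against unoperated MRL and day 1. The following were added after seeing the data. The block without both libraries gave 4767, 2900, 1700 and 40. Without infarct replicate 3, quantile normalisation gave 4411, 2008, 890 and 43, centring gave 4112, 1878, 681 and 40, and leaving out 1 further MRL day 5 array gave 3381 to 4119, 1395 to 1969, 475 to 703 and 29 to 45. Only the groups compared without it gave 5353 at day 5. The cause was not tested.

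No named gene changed sign where it was called. Of the list medians, which carry no test, 4 took the opposite sign in some of 31 alternatives: interferon-induced genes in 1 (-0.12 to 0.86), endothelial markers in 5 (-0.14 to 0.15), cell cycle inhibitors and p53 targets in 14 (-0.13 to 0.14), and erythroid and platelet markers in 8 (-0.07 to 0.10). Of 151 named genes called without infarct replicate 3, 131 were called whichever further day 5 array was left out. Probe sets near the array median limit the size of differences that can be read.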
